A study of Mus musculus with 16 samples.

Results

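The 10 genes described here encode neuropeptides outside the opioid family: *Sst*, *Cort*, *Npy*, *Vip*, *Cck*, *Crh*, *Tac1*, *Tac2*, *Adcyap1* and *Grp*. They were taken by symbol from the gene rows of the RNA matrices, and all 10 were found among the 32285 genes listed. The nuclei came from fresh-frozen, microdissected dentate gyrus (DG) of 8 mice, processed with the 10x Multiome kit, which gives RNA and open chromatin from each nucleus. WT mice carried 2 valine alleles at the mutated residue of Nrg1 (VV), and V321L mice were homozygous for the leucine allele (LL). There were 4 mice per genotype, 2 females (F1, F2) and 2 males (M1, M2), with 1 library per mouse. The study used juvenile to adult mice, and the exact age of those sequenced is not given in the sources used here.

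Neuropeptides are cut from larger precursors, stored in dense-core vesicles and released mainly during sustained firing, and they act on G protein-coupled receptors. In the hippocampus most peptide genes mark classes of GABAergic interneurons. Somatostatin cells derive from the medial ganglionic eminence (MGE) and vasoactive intestinal peptide cells from the caudal one (CGE), whereas cholecystokinin is made by interneurons and also by pyramidal neurons.

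The promoters of the 4 members that had enough counts for a test of genotype in GABAergic neurons are shown, since transcription of several peptide genes is controlled through the cyclic AMP response element (CRE), TGACGTCA. Each is the run of 150 bases that ends just before the RefSeq transcription start (GRCm38.p6), written 5′ to 3′ on the strand of the gene, with the CRE or its core TGACG, on either strand, in capitals.
Sst, chr16:23890845-23890994, minus strand: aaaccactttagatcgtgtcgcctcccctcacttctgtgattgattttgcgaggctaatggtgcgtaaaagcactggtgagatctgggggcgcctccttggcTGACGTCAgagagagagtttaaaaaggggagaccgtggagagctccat
Vip, chr10:5639068-5639217, plus strand: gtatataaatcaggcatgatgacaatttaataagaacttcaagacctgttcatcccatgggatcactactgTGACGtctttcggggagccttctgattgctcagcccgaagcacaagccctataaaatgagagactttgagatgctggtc
Cck, chr9:121495695-121495844, minus strand: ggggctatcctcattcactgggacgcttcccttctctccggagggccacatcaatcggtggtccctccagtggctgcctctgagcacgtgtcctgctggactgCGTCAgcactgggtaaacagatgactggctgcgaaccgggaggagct
Npy, chr6:49822560-49822709, plus strand: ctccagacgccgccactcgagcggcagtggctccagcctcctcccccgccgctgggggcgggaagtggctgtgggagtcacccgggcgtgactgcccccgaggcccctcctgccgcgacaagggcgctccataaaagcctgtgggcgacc

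RefSeq windows were kept for 8 of the 10 members, after windows of the members on 1 chromosome had been left out. None was kept for *Crh* and *Grp*, which does not show that RefSeq lacks them. The whole CRE was in 1 of the 8, *Sst*, starting at -48 from the transcription start, and in 1.36% of the 32851 promoters of the same length. The core TGACG, which the whole CRE contains, was in 6 of the 8 (*Sst*, *Cort*, *Vip*, *Cck*, *Tac1* and *Adcyap1*) and in 13.3% of all promoters. Members were counted by their first window, whereas the shares of all promoters count every window. *Adcyap1* had a second window, which lacked the core. These letters were not found in the *Npy* and *Tac2* windows either. A match describes the letters only.

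Barcodes were kept as nuclei within the study's limits on UMIs (unique molecular identifiers, 1 per RNA molecule captured), genes and mitochondrial share and with at least 500 ATAC counts in peaks. After removal of 655 doublets, 16360 nuclei remained. A nucleus was assigned to a class by the UMIs of fixed marker genes, with at least 3 distinct markers required, which gave 10039 granule cells (GCs), 473 GABAergic neurons, 366 CA3-type and 177 CA1-type pyramidal neurons and 2179 glia, with 2987 nuclei unassigned. *Gad1*, *Gad2*, *Slc32a1*, *Dlx6os1* or *Dlx1*, all markers of the GABAergic gate, was detected in 91.8% of the GABAergic nuclei and in 12.5% of the GCs. Of the 473 GABAergic nuclei, 446 fell into GABAergic clusters that were made without the 10 genes. Within the GABAergic gate 217 nuclei were MGE-type and 177 CGE-type, between 13 and 63 and between 11 and 38 per mouse. Only 3 nuclei passed the mossy cell gate, whereas a cluster of 118 nuclei was named mossy by the same markers. Each library shared between 31 and 66 barcodes with the other libraries.

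The libraries of the genotypes differed in quality, with no overlap between the mice. The median nucleus held 1096.5 to 1923 UMIs in WT mice and 2663 to 4131 UMIs in V321L mice. Ribosomal protein genes, whose mature mRNA lies largely in the cytoplasm, took 0.0495% to 0.120% of the GC UMIs of WT mice and 0.869% to 1.88% of those of V321L mice. The labels give no batch that would separate this from genotype, so the genotype and the quality of the libraries cannot be told apart, and the part of either in the values below was not tested. Tests over 4 against 4 mice measure the spread between these mice, and intervals and limits on counts cover counting error only.

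Free RNA, the RNA outside nuclei, was read from barcodes of 1 to 100 UMIs, which held between 506210 and 1225780 UMIs per WT library and between 2383796 and 3409055 per V321L library. The barcodes behind these UMIs differed between libraries. Those of 1 to 50 UMIs held 626110 of 742371 free UMIs in WT F1, 1156416 of 3409055 in V321L F1 and 1622143 of 2383796 in V321L M1. Free RNA is therefore not drawn from barcodes of the same size in every library. Levels are given in CPM, relative to all UMIs of the class or of the free RNA. All 10 transcripts were found in free RNA.

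*Cck*, cholecystokinin, stood in WT free RNA at 84.9 CPM (F1), 78.3 (F2), 215 (M1) and 76.0 (M2), and in V321L free RNA at 1921, 1758, 1576 and 2138 CPM in the same order. *Sst*, somatostatin, stood at 25.6, 21.2, 67.2 and 10.4 CPM in WT and at 278, 558, 308 and 330 CPM in V321L. *Npy*, neuropeptide Y, stood at 37.7, 36.7, 39.5 and 25.9 CPM in WT and at 253, 397, 203 and 229 CPM in V321L. For these 3 genes no V321L library overlapped the WT range. *Cort*, cortistatin, a relative of somatostatin, ranged from 2.69 to 7.90 CPM in WT and from 19.4 to 51.5 CPM in V321L. *Vip* ranged from 1.73 to 5.39 CPM in WT and from 6.78 to 18.9 CPM in V321L, and *Tac2*, the neurokinin B precursor, was listed at 0 in 3 WT libraries and reached 11.7 CPM in V321L. For these 3 and for *Grp*, gastrin-releasing peptide, at 1.35 to 5.71 CPM in WT and 6.17 to 31.0 CPM in V321L, the groups did not overlap either. They overlapped for the other 3. The share of all genes without overlap in free RNA was not counted, so the number of such members is no result about the group. In the test of all genes given below, 37.6% of 11087 were called higher in V321L free RNA. *Tac1*, which encodes substance P, ranged from 5.18 to 33.9 CPM over all 8 libraries, *Adcyap1*, the PACAP precursor, from 1.54 to 8.76 CPM, and *Crh*, corticotropin-releasing hormone, from 0 to 4.04 CPM.

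**Figure D1:**
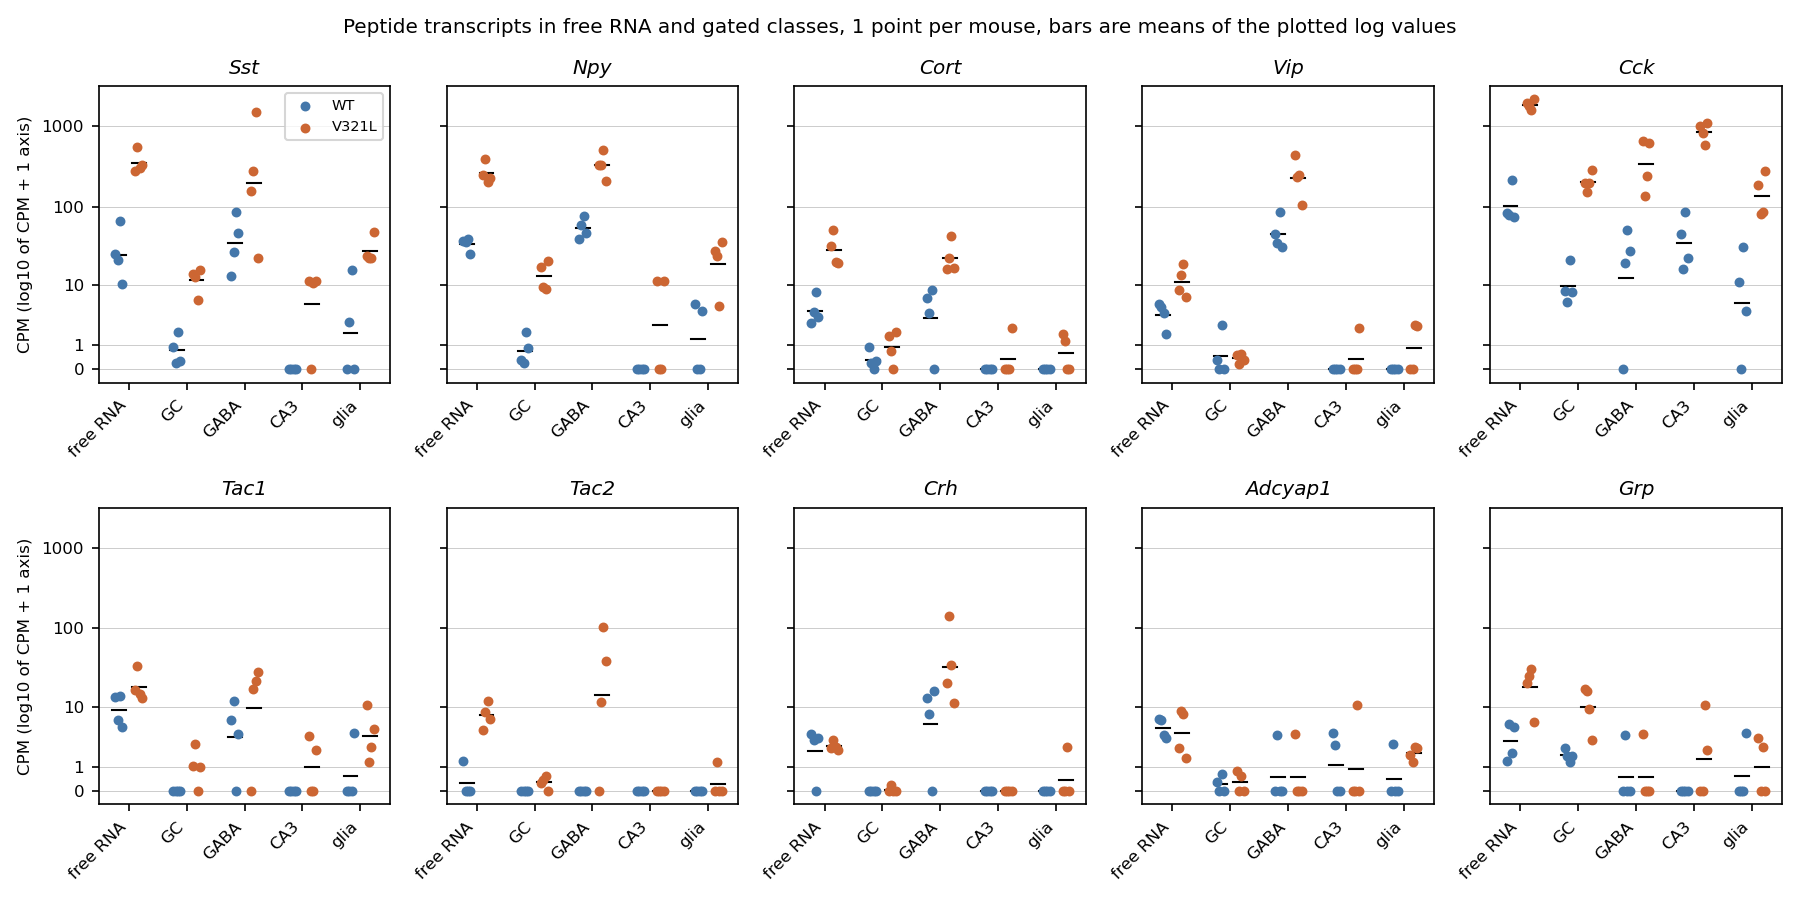
Level of each peptide transcript (CPM, on an axis of log10 of CPM + 1) in free RNA, granule cells (GC), GABAergic neurons (GABA), CA3-type neurons and pooled glia, with 1 point per mouse, WT in blue and V321L in orange, and bars at the mean of the plotted log values of 4 mice. *Vip* is the member whose GABAergic points lie above the free RNA in all 8 mice, whereas GC points lie below the free RNA for nearly all genes.

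*Vip* and *Crh* were the members carried by GABAergic neurons above the level of free RNA. In GABAergic neurons *Vip* stood at 46.0, 35.3, 86.7 and 31.8 CPM in the WT mice and at 437, 233, 248.9 and 107 CPM in the V321L mice. Every one of the 8 values lay above the free RNA of its own library, with means of 153 against 7.95 CPM (two-sided exact sign-flip permutation test over 8 mice, p = 0.00781, the smallest it can give, adjusted p = 0.0190 over 90 pairs of peptide and class). *Crh* stood at 13.1, 7.84, 0 and 15.9 CPM in WT and at 20.2, 142, 34.9 and 11.2 CPM in V321L GABAergic neurons. It lay above the free RNA in 7 of 8 mice, with means of 30.6 against 2.63 CPM (exact sign-flip permutation test, n = 8, p = 0.0156, adjusted p = 0.0238). These were 2 of 10 members tested, beside 24.3% of all genes that were higher in GABAergic neurons than in free RNA at the same unadjusted threshold of 0.05, so the count of members is not above that background.

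The same 2 members passed in CGE-type nuclei. *Vip* stood there at 162, 117, 296 and 96.2 CPM in WT and at 866, 628, 821 and 220 CPM in V321L mice, above free RNA in 8 of 8 (exact sign-flip permutation test, p = 0.00781, adjusted p = 0.0190). *Crh* averaged 68.0 CPM over the 8 mice, from 0 in WT F1 and WT M1 to 383 in V321L F2, and was above free RNA in 6 of 8 (exact sign-flip permutation test, p = 0.0312, adjusted p = 0.0446). In V321L F2 a single nucleus held 22 of the 25 *Crh* UMIs. Again 2 of 10 members stand beside a background, here 17.3% of all genes higher in CGE-type nuclei than in free RNA.

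A few nuclei held most of these UMIs. *Vip* was detected in 30 of the 473 GABAergic nuclei, 16 of them with at least 3 UMIs, and the 5 richest held 177 of its 259 UMIs, with 81 in a single nucleus. In all classes together 17 nuclei had 3 or more *Vip* UMIs, and 16 of these were GABAergic. *Vip* was detected in 2 of 2179 glia, whose median depth was 1173 UMIs against 2811 in GABAergic nuclei. *Crh* was detected in 17 GABAergic nuclei, and all 4 nuclei with 3 or more of its UMIs were GABAergic. A single nucleus of V321L F2 held 22 of the 48 *Crh* UMIs of GABAergic nuclei, and WT mice gave 8 of the 48. *Tac2* showed the same concentration. All 33 of its GABAergic UMIs came from V321L mice, at 0, 11.3, 105 and 39.3 CPM, and 32 of them from 5 nuclei. It was listed at 0 in the 4 WT mice, and 3 of 8 mice lay above free RNA (exact sign-flip permutation test, p = 0.375, adjusted p = 0.417). *Tac2* was not confined to GABAergic nuclei. A cluster of 198 nuclei named neuroblast by its markers held it in 5 nuclei. There it stood at 26.4 CPM from 7 UMIs in V321L nuclei and at 0 in WT nuclei. *Tac1* was not confined to GABAergic nuclei either. Its richest nucleus, with 12 UMIs, passed the GC gate but lay in an unnamed cluster of 107 nuclei. Pooled over mice, *Tac1* was highest in that cluster, with 13 UMIs in 2 V321L nuclei, this nucleus among them. A cluster of 311 oligodendrocyte precursors held it at 20.5 CPM in 10 nuclei. Gated precursors averaged 16.7 CPM, GABAergic neurons 11.2 and free RNA 14.6. Precursors lay above free RNA in 3 of 8 mice (exact sign-flip permutation test, p = 0.781).

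MGE-type and CGE-type nuclei of the same mouse were compared for the 7 members with enough UMIs. *Sst* and *Cort* were higher in MGE-type nuclei, and *Vip* and *Cck* in CGE-type nuclei, whereas *Npy*, *Tac2* and *Crh* did not pass. *Sst* stood in MGE-type nuclei at 30.4, 48.1, 149 and 84.3 CPM in WT and at 435, 627, 2346 and 14.1 CPM in V321L mice. In CGE-type nuclei it was listed at 0 in 7 mice, and V321L M2, at 34.8 CPM, was the 1 mouse with the opposite order (two-sided exact sign-flip permutation test, n = 8, p = 0.0156, adjusted p = 0.0273 over 7 genes). *Cort* averaged 27.4 CPM in MGE-type and 2.92 CPM in CGE-type nuclei, higher in MGE-type nuclei in 7 mice and at 0 in both in WT M2 (exact sign-flip permutation test, p = 0.0156, adjusted p = 0.0273). These 2 members stand beside 6.85% of all genes that were higher in MGE-type nuclei.

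*Vip* averaged 401 CPM in CGE-type and 0.881 CPM in MGE-type nuclei, higher in CGE-type nuclei in 8 of 8 mice (exact sign-flip permutation test, p = 0.00781, adjusted p = 0.0273). *Cck* averaged 347 CPM in CGE-type and 63.2 CPM in MGE-type nuclei, higher in 7 mice and at 0 in both in WT F1 (exact sign-flip permutation test, p = 0.0156, adjusted p = 0.0273). The background of genes higher in CGE-type nuclei was 5.99%. *Npy* averaged 155 ± 88.0 CPM in MGE-type and 280 ± 397 CPM in CGE-type nuclei (SD, n = 8; exact sign-flip permutation test, p = 0.453). Its order split by genotype, with MGE-type nuclei higher in all 4 WT mice (67.5 to 89.3 against 0 to 29.6 CPM) and CGE-type nuclei higher in 3 of the 4 V321L mice (441 to 1142 against 181 to 243 CPM), while V321L M2 stood at 127 in CGE-type and 296 CPM in MGE-type nuclei. The WT values rest on few counts, with 4 *Npy* UMIs in all in CGE-type and 31 in MGE-type nuclei. The 1142 CPM of V321L M1 rests largely on a single nucleus, which held 52 of the 71 *Npy* UMIs. This difference between the genotypes was not tested.

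**Figure D2:**
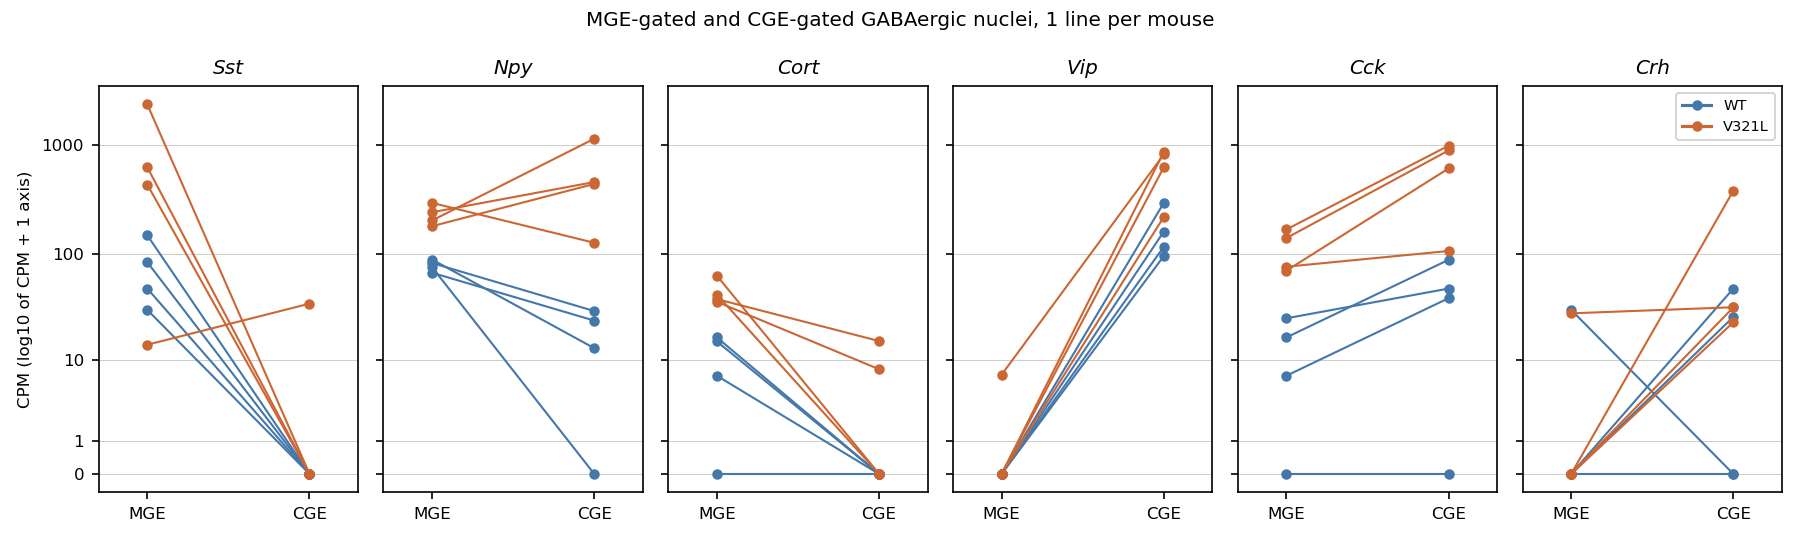
Level of 6 peptide transcripts (CPM, on an axis of log10 of CPM + 1) in MGE-type and CGE-type GABAergic nuclei, with the 2 values of a mouse joined by a line, WT in blue and V321L in orange. *Vip* rises to the right in all 8 mice and *Sst* falls in 7, and *Npy* falls in the 4 WT mice and V321L M2 and rises in the other 3 V321L mice.

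The study's upper limits on UMIs and genes removed deep nuclei, and the *Sst* result turned on them. Without these limits 562 nuclei passed the GABAergic gate, and their number went from 293 to 298 in WT and from 180 to 264 in V321L mice. *Sst* in the GABAergic neurons of V321L M2 then stood at 490 in place of 22.4 CPM and in V321L F2 at 1214 in place of 278 CPM. With the limits, *Sst* lay above free RNA in 4 of 8 mice (exact sign-flip permutation test, p = 0.898). Without them it was higher in 8 of 8 (exact sign-flip permutation test, p = 0.00781, adjusted p = 0.0146), and the pairs above free RNA went from 4 to 9, by addition of *Sst* and *Npy* in GABAergic neurons and of *Sst*, *Cort* and *Tac1* in MGE-type nuclei. *Tac1* in MGE-type nuclei averaged 68.8 CPM without the limits and 21.8 CPM with them.

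Glia of the same mouse gave a second reference, chosen after the levels in free RNA had been seen. Against pooled glia, 6 of 8 members tested were higher in GABAergic neurons at an unadjusted p under 0.05, beside a background of 13.9% of genes. They were *Sst*, *Npy*, *Cort*, *Vip*, *Cck* and *Crh*. *Npy* stood in GABAergic neurons at 39.4, 58.8, 78.0 and 47.6 CPM in WT and at 328, 335, 511 and 213 CPM in V321L mice, above glia in 8 of 8 (means 201 against 12.9 CPM, exact sign-flip permutation test, p = 0.00781, adjusted p = 0.0398 over 28 pairs). *Sst* was above glia in 7 of 8 mice (exact sign-flip permutation test, p = 0.0312, adjusted p = 0.0547). *Cort* was above glia in 7 of 8 (14.8 against 0.376 CPM, exact sign-flip permutation test, p = 0.0156, adjusted p = 0.0398). In glia *Cort* was listed at 0 in all 4 WT mice.

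The clusters, made from other genes, separated the peptides further. A GABAergic cluster of 172 nuclei, led beside *Sst* by *Nxph1* and *Kcnmb2*, held *Sst* at 812 CPM, with 24 nuclei of 3 or more UMIs, and *Tac1* at 29.4 CPM, from 17 UMIs in 10 nuclei. A second, of 160 nuclei and led by *Cnr1*, the cannabinoid receptor gene, held *Vip* at 459, *Cck* at 459, *Crh* at 69.6 and *Tac2* at 58.9 CPM. Another, of 158 nuclei and led by *Pde11a*, held *Npy* at 408 and *Cck* at 170 CPM, and its *Sst* stood at 3.70 CPM. These levels are pooled over mice. In WT nuclei alone *Sst* stood at 118 CPM in the first and *Vip* at 132 CPM in the second, and in V321L nuclei at 1741 and 721 CPM. By mouse, *Sst* in the first cluster ranged from 46.7 to 282 CPM in WT. In V321L it stood at 652 (F1), 1587 (F2), 2841 (M1) and 0 CPM (M2), so V321L M2 lay below every WT mouse. Of the nuclei of the *Pde11a* cluster, 77 were MGE-type, 29 CGE-type and 45 GABAergic of neither type.

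*Npy* was detected in all 3 of these clusters, and the order of the clusters differed between the genotypes. In WT nuclei it stood at 106 CPM in the *Sst* cluster, 20.04 CPM in the *Cnr1* cluster and 36.0 CPM in the *Pde11a* cluster, and in V321L nuclei at 227, 132 and 728 CPM. In the *Pde11a* cluster a single nucleus held 52 of the 212 *Npy* UMIs of V321L nuclei. The difference in order between the genotypes was not tested. Of 18 GABAergic nuclei with *Cort*, 15 also had *Npy*, against 79 of 455 without *Cort*, and 5 had *Sst*. The nuclei with *Cort* were deeper, with a median of 5335 against 2713 UMIs, and the part of depth in this share was not tested. At 3 or more UMIs, 36 GABAergic nuclei were rich in *Npy*, 29 in *Cck* and 22 in *Sst*. *Npy* and *Cck* met in 12 of these nuclei, *Npy* and *Sst* in 1, and *Sst* and *Cck* in none.

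**Figure D3:**
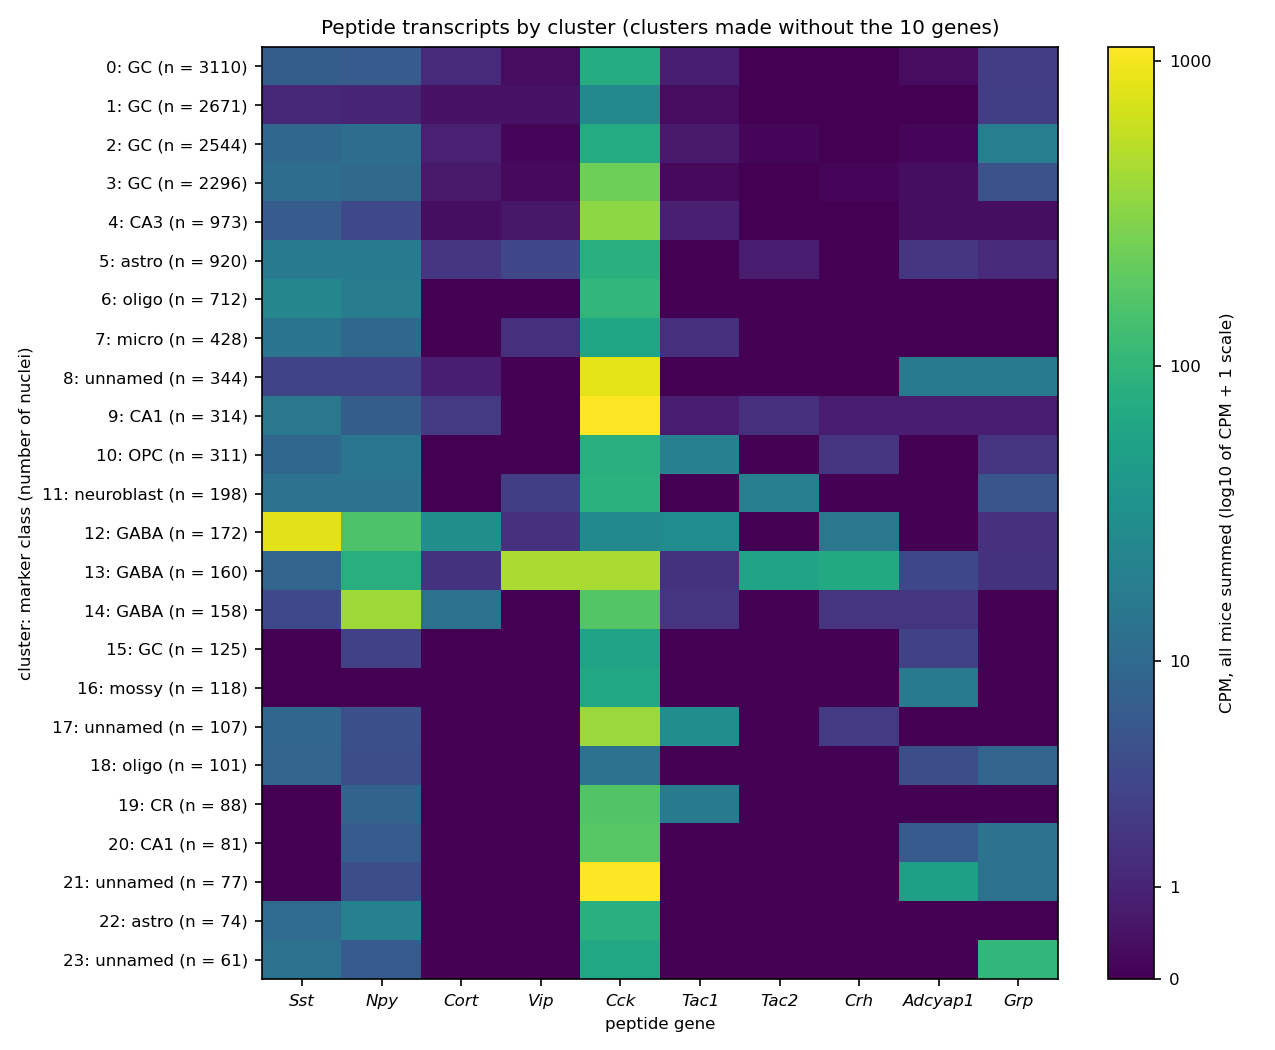
Level of the 10 peptide transcripts (CPM, summed over all mice, on a colour scale of log10 of CPM + 1) in the 24 clusters of at least 60 nuclei, which were made without these genes. Pooled over the genotypes, *Sst*, *Vip* and *Npy* peak in 3 different GABAergic clusters, *Cck* is spread over pyramidal and unnamed clusters, and *Adcyap1* and *Grp* peak in unnamed clusters.

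*Cck* was detected in 3185 nuclei and in every one of the 29 clusters. In CA1-type nuclei of V321L mice it stood at 1510.4, 1264, 965 and 1527 CPM, and in CA3-type nuclei at 1009.8, 819.6, 591 and 1107 CPM. In WT mice CA3-type nuclei held 46.0, 16.4, 87.7 and 22.5 CPM, and the CA1-type nuclei, between 4 and 8 per mouse, gave 5 *Cck* UMIs in all. Of 869 nuclei with 3 or more *Cck* UMIs, 342 were GCs, 131 CA1-type, 104 CA3-type, 29 GABAergic and 245 unassigned. None of the 9 classes tested lay above free RNA, and CA1-type nuclei were too few in WT for the test. *Cck* in CA3-type nuclei was below free RNA in all 7 mice with enough nuclei (exact sign-flip permutation test, p = 0.0156, the smallest for 7 mice, adjusted p = 0.0238) and above glia in all 7 (411 against 85.0 CPM, p = 0.0156, adjusted p = 0.0398). In a CA1 cluster of 121 WT and 193 V321L nuclei it stood at 66.7 CPM in WT and 1369 CPM in V321L nuclei. In unnamed clusters of 344 and 77 nuclei, both with *Tshz2* among their leading genes, it stood at 49.2 and 48.9 CPM in WT and at 1039 and 1348 CPM in V321L nuclei.

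*Adcyap1* gave 2 UMIs in all GABAergic nuclei and 7 in all GCs, and no nucleus held 3 or more. Its highest level pooled over mice, 52.8 CPM with 12 positive nuclei, was in the unnamed cluster of 77 nuclei led by *Rxfp1* and *Tshz2*. The unnamed cluster of 344 nuclei held 16.4 CPM in 18 nuclei. The cluster of 118 nuclei named mossy by its markers, led by *Gm32647* and *Glra3*, held 17.8 CPM in 8 nuclei. Its 111 WT nuclei stood at 14.1 CPM from 6 UMIs, and its 7 V321L nuclei at 82.0 CPM from 2 UMIs.

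*Grp* acts on the receptor *Grpr*. Of 239 nuclei with *Grp*, 187 were GCs, which were 10039 of all 16360 nuclei. GCs gave 227 *Grp* UMIs, and GABAergic neurons 2 UMIs from 2 of 473 nuclei. In WT GCs it stood at 2.43, 1.72, 1.27 and 1.70 CPM and in V321L GCs at 16.99, 16.3, 9.23 and 3.21 CPM. GCs lay below free RNA in 7 of 8 mice (6.61 against 12.1 CPM, exact sign-flip permutation test, p = 0.0234, adjusted p = 0.0346) and above glia in 7 of 8 (6.61 against 1.28 CPM, p = 0.0391, adjusted p = 0.0643). One GC cluster of 2544 nuclei held 113 of the positive nuclei, at 4.30 CPM in its 1169 WT and 25.5 CPM in its 1375 V321L nuclei. The other 3 large GC clusters stood between 0 and 1.71 CPM in WT nuclei, the 0 from 11 nuclei, and between 5.02 and 15.1 CPM in V321L nuclei. An unnamed cluster of 61 nuclei led by *Cntn6* held 32 *Grp* UMIs, all from its 48 V321L nuclei, at 115 CPM.

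In GCs all 10 members averaged less than in free RNA, and 9 of 10 did so at an unadjusted p under 0.05, beside 29.6% of all genes. *Tac2*, with 5 UMIs in GCs, was the exception. In oligodendrocytes all 10 members averaged less than in free RNA as well, and 7 of 10 did so at an unadjusted p under 0.05, beside 29.3% of all genes. In WT GCs *Sst* and *Npy* gave 8 UMIs each over 6017 nuclei, at most 1 per nucleus. *Tac1*, *Tac2* and *Crh* gave none there, which allows a share of up to 0.0499% of nuclei with a UMI.

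Between the genotypes, the members that passed the filter on low counts were all higher in V321L GCs and in V321L GABAergic neurons. A gene can pass this filter through the V321L libraries alone. The shared direction can therefore come from the filter and is no support for a change of the group. This limit holds for all genes tested by edgeR below. With no filter all 10 members were tested, and 5 were called in GCs and 7 in GABAergic neurons. Over all genes at that setting, 10185 of 24584 were called in GCs and 2402 of 17857 in GABAergic neurons, in either direction. These counts of members are no support for a change of the group either. In GCs the 4 members tested were called by edgeR's quasi-likelihood test with Benjamini-Hochberg adjustment over 12317 genes, of which 38.6% were called higher in V321L. *Cck* stood in WT GCs at 8.21, 5.80, 21.6 and 7.92 CPM and in V321L GCs at 198, 154, 201 and 286 CPM. The log2 fold change was 4.01 ± 0.28 (SE, edgeR adjusted p = 1.70e-07). *Sst* changed by 3.77 ± 0.48 (edgeR adjusted p = 1.33e-05) and *Npy* by 3.95 ± 0.51 (edgeR adjusted p = 1.37e-05), each from 1 to 3 UMIs per WT library, so that these folds rest on few WT counts. *Grp* changed by 2.19 ± 0.48 (edgeR adjusted p = 0.00110). The median over all genes tested in GCs was 0.11, and the 80 ribosomal protein genes tested were all called higher, with a median of 3.96.

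In GABAergic neurons the 4 members tested were all called, beside 19.5% of 3728 genes called higher in V321L. *Cck* stood at 0, 19.6, 52.0 and 27.8 CPM in WT and at 648, 136, 245 and 628 CPM in V321L GABAergic neurons, a log2 fold change of 4.08 ± 0.57 (edgeR adjusted p = 4.07e-05). *Npy* rose by 2.60 ± 0.29 (edgeR adjusted p = 6.73e-06) and *Vip* by 2.46 ± 0.40 (edgeR adjusted p = 0.000159). Without the upper limits on UMIs and genes the *Vip* change was 1.04 ± 0.48 and did not pass (edgeR adjusted p = 0.0981).

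*Sst* in GABAergic neurons stood at 13.1, 27.4, 86.7 and 47.6 CPM in WT and at 158, 278, 1507 and 22.4 CPM in V321L mice, so V321L M2 lay within the WT range. The log2 fold change was 3.52 ± 0.85 (edgeR adjusted p = 0.00400). V321L M1 held 345 of the 468 *Sst* UMIs, and without this mouse the change was 1.82 ± 0.55 (edgeR adjusted p = 0.0149). Without the upper limits, where V321L M2 no longer overlapped WT, it was 4.01 ± 0.37 (edgeR adjusted p = 5.57e-06). The 50 ribosomal protein genes tested in GABAergic neurons were all called higher, with a median of 4.02, against a median of -0.02 over all genes. In MGE-type nuclei *Sst* changed by 3.70 ± 0.84 (edgeR adjusted p = 0.00681), where V321L M1 held 333 of its 447 UMIs and V321L M2 lay below every WT mouse. Without V321L M1 this change was 2.46 ± 0.59 (edgeR adjusted p = 0.00535). There *Npy* changed by 1.67 ± 0.29 (edgeR adjusted p = 0.000888), and in CGE-type nuclei *Vip* changed by 2.28 ± 0.43 (edgeR adjusted p = 0.00137).

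Free RNA carried the same direction. There 7 of the 8 members tested were called higher in V321L, beside 37.6% of 11087 genes. Here too a gene could pass the filter on low counts through the V321L libraries alone. *Cort*, *Vip* and *Grp* gave at most 5, 6 and 7 UMIs per WT library and at least 48, 22 and 20 per V321L library. The count of members called is therefore no support for a change of the group. The gated nuclei differed as well. WT libraries held 4 to 8 CA1-type nuclei and 15 to 64 oligodendrocytes each, and V321L libraries 31 to 47 and 112 to 204. The gate, which needs 3 distinct markers, left 2194 of 9442 WT and 793 of 6918 V321L nuclei unassigned. By clusters the difference was smaller for CA1, with 121 and 38 WT and 193 and 43 V321L nuclei in 2 CA1 clusters. The 2 oligodendrocyte clusters held 136 and 97 WT and 576 and 4 V321L nuclei. The part of depth in the gated counts, and of the make-up of the nuclei in the free RNA, was not tested. More cells of a type and more RNA per cell cannot be told apart in free RNA. The log2 fold changes were 4.43 ± 0.28 for *Cck*, 4.01 ± 0.30 for *Sst*, 3.29 ± 0.22 for *Npy* and 3.17 ± 0.40 for *Cort* (edgeR adjusted p between 5.49e-14 for *Cck* and 4.68e-08 for *Cort*). *Grp* changed by 2.70 ± 0.50, *Vip* by 1.78 ± 0.43 and *Tac1* by 1.40 ± 0.35 (edgeR adjusted p between 1.82e-05 for *Grp* and 0.000798 for *Tac1*). *Adcyap1*, at 3.46 to 6.74 CPM in WT and 1.54 to 8.76 CPM in V321L, had a change of 0.16 ± 0.51 that did not pass (edgeR adjusted p = 0.780). The 80 ribosomal protein genes were all called higher in free RNA, with a median of 3.95.

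With library sizes in place of TMM the median over all genes moved from 0.11 to 0.56 in GCs, from -0.02 to 0.17 in GABAergic neurons and from -0.01 to -0.38 in free RNA. The share of calls that were higher in V321L then went from 54.9% to 75.2%, from 57.8% to 73.4% and from 49.98% to 39.6%. The called members kept their direction.

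**Figure D4:**
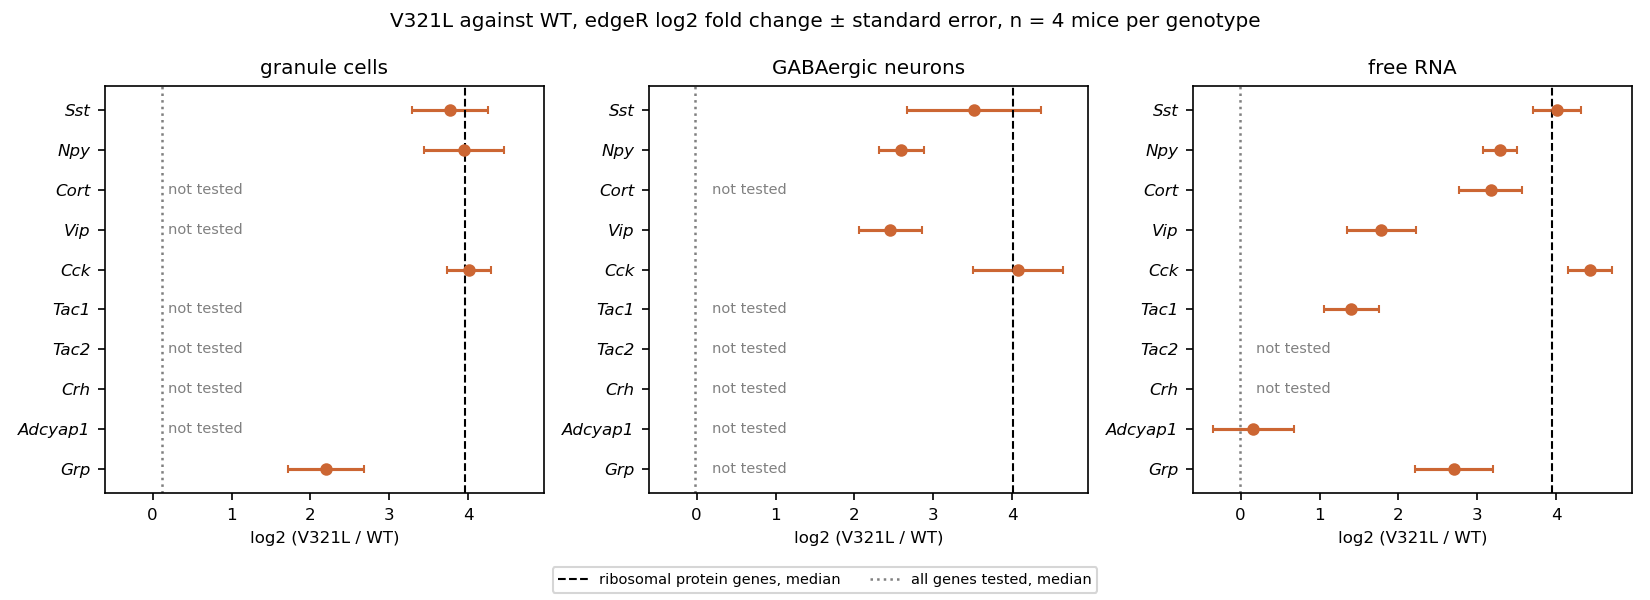
Log2 fold change of V321L against WT from edgeR for each member (points, bars are ± 1 standard error, n = 4 mice per genotype) in granule cells, GABAergic neurons and free RNA, with the median of the ribosomal protein genes dashed and of all genes dotted. All called members lie to the right of the dotted line, *Cck* at 4.01, 4.08 and 4.43 in the 3 panels, where the dashed line stands at 3.96, 4.02 and 3.95, and *Adcyap1* in free RNA lies near 0.

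Since both the nuclei and the free RNA of a library moved, the level of a member in a class was also divided by its level in the free RNA of the same library. For *Cck* in GCs this ratio was 0.0968, 0.0741, 0.1002 and 0.104 in WT and 0.103, 0.0879, 0.127 and 0.134 in V321L mice. The geometric means, 0.0930 and 0.111, differed by 0.26 on the log2 scale (exact permutation test over the 8 mice, two-sided, p = 0.229).

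Of the 11 ratios compared, none passed after adjustment. *Npy* in MGE-type nuclei was the 1 pair without overlap, at 2.01 to 2.60 in WT and 0.612 to 1.29 in V321L (p = 0.0286 by the exact permutation test, the smallest that 4 against 4 mice can give, adjusted p = 0.314). *Vip* in CGE-type nuclei stood at 24.0 to 74.9 times free RNA in WT and at 32.5 to 102 times in V321L (p = 0.571 by the exact permutation test). A p above the threshold does not show that the ratios are equal, and the log2 ratio of *Sst* in GABAergic neurons had an SD of 1.299 over WT and 2.52 over V321L mice.

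**Figure D5:**
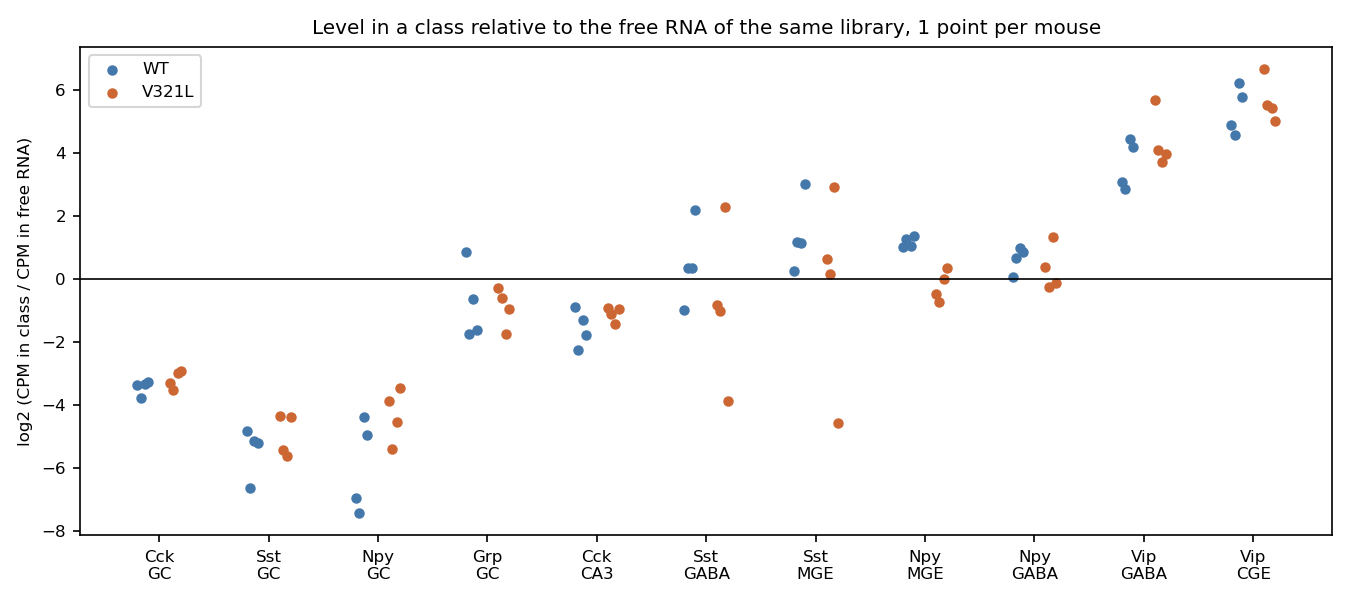
Log2 ratio of the level in a class to the level in the free RNA of the same library, with 1 point per mouse, WT in blue and V321L in orange, for the 11 pairs of peptide and class compared. Points above 0 are above free RNA. *Vip* lies above 0 in all 8 mice, the GC ratios of *Cck*, *Sst* and *Npy* lie below 0 in all 8, and *Npy* in MGE-type nuclei is the pair in which WT and V321L points do not overlap.

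The share of GABAergic nuclei with at least 1 UMI was compared after each nucleus was thinned to 1000 UMIs, because depth differed, which left 237 of 293 WT and 175 of 180 V321L nuclei. *Npy* was then detected in 0%, 7.78%, 10.2% and 6.45% of nuclei in WT and in 23.6%, 21.9%, 22.0% and 12.8% in V321L mice. The groups did not overlap (exact permutation test, p = 0.0286, adjusted p = 0.129). *Cck* was in 2.51% ± 2.32 of WT and 19.5% ± 8.25 of V321L GABAergic nuclei (SD, n = 4 each), again without overlap (p = 0.0286 by the exact permutation test, adjusted p = 0.129). Every V321L mouse was above every WT mouse for 2 of the 6 members detected in at least 5 nuclei, beside 9.09% of all such genes.

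At full depth *Sst*, *Npy*, *Cort*, *Vip* and *Cck* were without overlap (exact permutation test, p = 0.0286 each, adjusted p = 0.0571). The 9.09% of genes above holds for thinned nuclei, and the share of all genes without overlap at full depth was not counted. The number of members without overlap is therefore no result about the group. At full depth *Npy* was in 11.5% ± 3.76 of WT and 35.3% ± 5.69 of V321L GABAergic nuclei. In glia the share with *Npy* was 0.308% ± 0.360 in WT and 3.18% ± 1.77 in V321L mice. *Cck* was in 4.45% ± 3.596 and 38.7% ± 13.7 of GABAergic nuclei and in 0.935% ± 0.818 and 16.1% ± 6.07 of glia. The median depth was 2168 UMIs in WT and 4905 in V321L GABAergic nuclei, and 905 in WT and 1268 in V321L glia.

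Promoter accessibility is a readout of the same nuclei that does not rest on peptide RNA. It was read in CPM, here relative to all ATAC counts of the class, from peaks that overlap 1 kb on either side of the transcription start, in libraries with such a peak, since peaks were called per library. *Npy* had a peak in 6 libraries and stood there at 30.7 ± 13.0 in GABAergic neurons and 5.30 ± 1.23 in GCs (SD, n = 6), higher in GABAergic neurons in 6 of 6 (two-sided exact sign-flip permutation test, p = 0.0312, the smallest for 6 libraries, adjusted p = 0.125). It was 1 of 4 members tested. Of all promoters with a peak in at least 6 libraries, 6.02% were higher in GABAergic neurons in every library with a peak. *Grp*, with a peak in 4 libraries, lies outside that background. The WT values (F2, M1, M2) were 37.1, 27.5 and 52.3 and the V321L values (F2, M1, M2) 30.4, 14.7 and 22.1 CPM in GABAergic neurons, from 55 counts in all.

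No member passed after adjustment, and the promoters of the other members did not pass before it either. For *Grp* the smallest p that the exact sign-flip permutation test can give is 0.125, so it could not pass. *Cck* stood at 15.2 ± 6.37 in GABAergic neurons and 14.1 ± 5.98 in GCs (SD, n = 6; exact sign-flip permutation test, p = 0.656). *Crh* had a peak in all 8 libraries, at 15.3 ± 19.9 and 8.44 ± 2.47 CPM, and *Grp* in 4, at 10.1 ± 8.40 and 7.05 ± 2.04 (exact sign-flip permutation test, p = 0.406 and p = 0.5). *Cort* had a peak in V321L M1 alone, where GABAergic neurons stood at 27.3 and GCs at 0.569 CPM. No peak overlapped the windows of *Sst*, *Vip*, *Tac1*, *Tac2* and *Adcyap1*. GABAergic nuclei held between 90417 and 509027 ATAC counts per library, which limits these values.

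The receptors of these peptides, a list of 18 receptors and the binding protein *Crhbp*, were counted as a list. Those with the highest mean CPM over the 8 mice are named for each class. In GCs they were *Adcyap1r1*, the PACAP receptor, at 37.9 ± 10.1 CPM (WT) and 54.9 ± 2.05 CPM (V321L), *Npy1r* at 34.1 ± 11.6 and 52.2 ± 7.16, and *Npy5r* at 16.7 ± 2.52 and 53.8 ± 7.62 (SD, n = 4 each). Of 7 tested in GCs, 4 were called higher in V321L and none lower, beside 38.6% of all genes called higher, and their median log2 fold change was 1.08, where that of all genes was 0.11. They were *Sstr2* (1.69 ± 0.22), *Npy5r* (1.27 ± 0.14), *Vipr1* (1.22 ± 0.15) and *Crhr1* (1.08 ± 0.39), with edgeR adjusted p between 3.69e-06 for *Npy5r* and 0.0244 for *Crhr1*. No receptor had enough counts for the test in GABAergic neurons, where *Adcyap1r1*, *Crhbp* and *Tacr1* gave 72, 32 and 30 UMIs. In free RNA 6 were tested, of which *Crhbp* was called higher (1.63 ± 0.44) and *Npy2r* lower (-1.06 ± 0.20).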

How the data were processed

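The authors deposited, for each library, a matrix of raw counts that holds the UMIs of each gene and the ATAC reads of each peak for every barcode. Per the labels and the submitters' processing notes these were made with Cell Ranger on mm10, and Seurat and Signac are also named there. Peaks were called per library. Nothing was normalized before deposit.

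Barcodes with at least 500 UMIs, 250 genes and 500 ATAC counts and within the study's upper limits on UMIs, genes and mitochondrial share were taken as nuclei, and doublets were removed with Scrublet at the mean plus 2 SD of the score. Nuclei were gated by fixed markers of 12 classes, with at least 3 distinct markers. Clusters were made by Leiden clustering (scanpy 1.11.5, leidenalg 0.10.2) on other genes than the 10 members. Free RNA is the sum of barcodes of 1 to 100 UMIs. RNA libraries held between 4326426 and 23582057 UMIs.

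Counts were summed per mouse and class and tested with edgeR 4.0.16 (R 4.3.3; quasi-likelihood test, TMM, Benjamini-Hochberg adjustment over all genes tested), with DESeq2 1.42.0 as an alternative. Levels within a mouse were compared by an exact sign-flip permutation test and shares and ratios between genotypes by an exact permutation test (scipy 1.17.1), all two-sided at 0.05. The edgeR step was tested on simulated data. Alternatives were library sizes in place of TMM, no filter on low counts, other gates and limits, thinning, the replicate block and leaving out each mouse.

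All 10 members are named. Of the receptors, those called and the 3 with the highest mean CPM in GCs and in GABAergic neurons are named, and of genes that went with a peptide those with the largest ratio. The members and lists were chosen with earlier results of these data known. The fixed tests were kept, and pooled glia as a reference and leaving out each mouse for MGE-type and CGE-type nuclei and for shares were added after the data were seen. F1, F2, M1 and M2 number the mice within a sex and genotype. Their deviations in GCs correlated by between -0.114 and 0.266, so the numbers were not taken to pair mice.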

Additional observations from a re-analysis of the deposited data

Results flagged for a closer look

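The 4 mice of a genotype were examined for a value far from the others in 46 groups, and 4 were found. The rule flags about 1 in 20 groups of normally distributed values, a rate that need not hold for low counts. WT M1 stood apart for *Cck*, both in free RNA, at 215 CPM where the nearest WT mouse had 84.9 CPM, and in GCs, at 21.6 CPM where the nearest had 8.21 CPM. V321L F2 had 33.9 CPM of *Tac1* in free RNA, where the nearest V321L mouse had 16.4 CPM. WT F1 had 1.35 CPM of *Tac2* in free RNA, from 1 UMI, where the other 3 WT mice were listed at 0. With 3 mice at 0 the rule flags any count in the remaining mouse. The causes were not tested.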

How the results depend on the processing

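Of 286 values of single members under the alternatives, 1 no longer passed, 2 turned in direction and the others kept their direction and their side of the threshold. *Vip* in GABAergic neurons fell to 1.04 and did not pass without the upper limits on UMIs and genes. *Adcyap1* in free RNA, which did not pass, turned to -0.19 with library sizes in place of TMM and to -0.11 with barcodes of 11 to 100 UMIs. The members called in GCs went from 4 to 1 after thinning to 1000 UMIs, where 1 was tested. In GABAergic neurons they went from 4 to 7 with no filter on low counts, where 2402 of 17857 genes were called. Thinning left no member to test in GABAergic neurons. With 1 mouse left out, between 5 and 8 members were called in free RNA and 4 in GCs and in GABAergic neurons. The replicate block gave 4, 4 and 7 members called in GCs, GABAergic neurons and free RNA, and changed no member's call. The *Sst* change in GABAergic neurons was 2.82 with the block and 3.52 without it. The pairs of peptide and class above their reference went from 4 to 9 without the upper limits and to 11 with pooled glia as the reference, and were 3 to 4 with 1 mouse left out. The members whose shares of GABAergic nuclei did not overlap went from 2 to 4 with at least 1000 ATAC counts, to 5 without the upper limits and to 5 at full depth. With 1 mouse left out they were 0 to 3, with 0 without WT F1 and 1 without WT F2, M1 or M2. The share of all genes without overlap was not counted under these alternatives. The promoters with an unadjusted p under 0.05 went from 1 to 0 with one more marker required and were 0 to 1 with 1 mouse left out. They were 0 without WT F2, WT M1, WT M2, V321L F2, V321L M1 or V321L M2, where fewer libraries cannot reach the threshold. The other causes were not tested.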

Other observations

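Genes that went with a peptide within a class are given as a description, from mice with at least 5 nuclei with the peptide. In GABAergic nuclei with *Vip*, from 2 mice, *Penk*, the enkephalin precursor, was higher by 4.70 and *Cbln2* by 4.47 on the log2 scale than in those without. In GABAergic nuclei with *Sst*, from 5 mice, *Cacng3* was higher by 2.29 and *Kcnh5* by 2.18, and with *Npy*, from 8 mice, *Crispld1* by 1.52. In GCs with *Grp*, from 7 mice, *Plpp4* was higher by 1.56 and *Sgcz* by 1.51. In oligodendrocytes with *Cck*, from 4 mice, the leading genes were *Kcnip4* at 3.96 and *Nrg3* at 3.85. The part of depth in these differences was not tested.

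Of 12 other peptide genes counted as a list, 1 was tested in GCs and 2 in free RNA, and all were called higher in V321L by edgeR, beside 38.6% of all genes in GCs and 37.6% in free RNA, and as were all 80 ribosomal protein genes tested in each. *Nmb*, neuromedin B, changed by 1.89 ± 0.38 in GCs and 5.07 ± 0.62 in free RNA, and *Cartpt* by 3.88 ± 0.51 in free RNA.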
